A study of Homo sapiens with 12 samples.

Results

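CTCF binding sites were compared between wild-type HAP1 cells and HAP1 cells that had lost WAPL, with the CTCF peak lists that were deposited for both genotypes. A site was called shared when its interval overlapped an interval of the other list by at least 1 bp, gained when it was in the ΔWAPL list only and lost when it was in the wild-type list only. Of 45798 ΔWAPL peaks, 6345 were gained (13.9%, 95% interval 13.5% to 14.2%), and of 43050 wild-type peaks, 3600 were lost (8.36%, 95% interval 8.10% to 8.63%). The shared sites were 39450 wild-type peaks and 39453 ΔWAPL peaks, and both lists together covered 49355 separate regions.

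CTCF is a zinc-finger protein that binds an asymmetric DNA motif, and most sites where cohesin pauses along mammalian chromosomes are CTCF sites. Cohesin is a ring-shaped complex that is thought to enlarge DNA loops until it meets a CTCF motif pointing towards it, so that the motifs at the base of a loop usually face each other. WAPL opens the ring and removes cohesin from DNA, while the loader SCC2/SCC4 promotes its loading.

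HAP1 cells are human, nearly haploid and descend from a chronic myeloid leukaemia. The ΔWAPL cells were a HAP1 clone in which WAPL had been disrupted by CRISPR with insertion of a Blasticidin resistance cassette, and wild-type cells were unedited HAP1. The series also holds CTCF libraries of ΔSCC4 cells, in which MAU2, the gene for SCC4, carries a Puromycin cassette, and of ΔWAPL/ΔSCC4 cells (the double knockout), which were made by knocking out SCC4 in ΔWAPL cells, as well as SMC1 (cohesin) and IgG (control) libraries of all 4 genotypes. Each group was 1 library of 1 line, so no test between genotypes was possible, and WAPL loss, the clone and the library cannot be told apart. The intervals of the shares are 95% Wilson intervals and cover counting error only. Depth differed, with 6.53 reads per kb in the wild-type and 8.41 in the ΔWAPL CTCF library, as recovered from the lists.

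The sequences below are those of the strongest gained and lost sites with a motif, and they are not typical of their classes. The most common bases of the motif learned from the strongest shared sites, with N where no base reached a majority, were as follows.

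CTCF motif, 19 bp: NNGCCACCAGGGGGCGCNN

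The 3 strongest gained sites with a match to this motif are given 5′ to 3′ on the strand of the motif, with the match in capitals and 11 bp on each side (hg19).

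Gained, intergenic, chr4:189294205-189294245, minus strand: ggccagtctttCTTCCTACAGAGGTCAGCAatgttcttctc

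Gained, near the start of CCER1, chr12:91347790-91347830, plus strand: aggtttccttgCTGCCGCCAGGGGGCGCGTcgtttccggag

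Gained, intron of CTNNA2, chr2:80082697-80082737, minus strand: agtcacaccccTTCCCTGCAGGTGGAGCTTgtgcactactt

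The 3 strongest lost sites with a match follow, and then 3 further lost sites that were chosen after their values were seen because, like the site in GSE1, they hold a CpG at positions 5 and 6 of the match. The gained site near CCER1 holds this CpG too.

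Lost, coding exon of TTK, chr6:80737638-80737678, minus strand: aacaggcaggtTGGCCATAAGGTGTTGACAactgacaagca

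Lost, intron of GSE1, chr16:85513963-85514003, plus strand: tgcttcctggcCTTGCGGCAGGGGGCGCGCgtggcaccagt

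Lost, near the start of LINC02303, chr14:46185892-46185932, plus strand: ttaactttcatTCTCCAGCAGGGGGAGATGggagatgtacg

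Lost, intergenic, close to LAMA5, chr20:60944076-60944116, minus strand: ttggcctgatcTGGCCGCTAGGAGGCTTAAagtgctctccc

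Lost, intron of NBAS, chr2:15571215-15571255, plus strand: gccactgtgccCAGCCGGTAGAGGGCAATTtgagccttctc

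Lost, intron of FAM168A, chr11:73241385-73241425, plus strand: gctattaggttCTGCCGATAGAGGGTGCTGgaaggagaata

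Gained and lost sites were mostly weak. The median fold enrichment, the ratio of reads at the summit to the local background in the deposited lists, was 5.48 at gained sites and 5.28 at lost sites, against 13.1 at shared sites in the wild-type list and 12.7 in the ΔWAPL list. The median summit pileup, the number of extended reads over the summit, was 14 reads at gained sites and 11 at lost sites, against 42 and 45 at shared sites. At −log10 q (the peak caller's adjusted p-value) of at least 10, 1596 sites were gained, which is 4.41% of such ΔWAPL peaks, and 360 were lost, which is 1.07% of such wild-type peaks. At −log10 q of at least 20, 279 were gained (0.981%) and 35 were lost (0.133%), of which 20 remained without the exons of the single gene TTK.

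More sites were gained than lost, and the ΔWAPL library was the deeper one. The ΔWAPL summits were then thinned to the wild-type depth, and both lists were held to −log10 p of at least 8. This left lists of 39486 and 39322 peaks, of which 4043 were gained and 3877 were lost. Of the 6345 gained sites 2999 still passed, and of the 3600 lost sites 1750. Both new counts therefore include sites that were shared in the full lists. Thinning and the threshold were changed together, and their separate parts were not tested. The overlap rule itself decided little, since the median overlap of shared peaks was 310 bp, 9 shared wild-type peaks overlapped by under 50 bp, and 31 gained and 15 lost peaks had a peak of the other list less than 100 bp away.

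The 8 strongest gained sites, which by definition had no wild-type CTCF peak, lay on chromosomes 2, 4, 12, 14 and 15. Several of them, including the one in YIPF7 below, were on chromosome 4. The strongest was on chromosome 4 (chr4:189294076-189294398), 16583 bp from the nearest annotated transcript start, with 122 ΔWAPL reads at the summit, 28.9-fold over background. The same site had a CTCF peak of 20.1-fold in ΔWAPL/ΔSCC4 and none in ΔSCC4, and SMC1 peaks of 12.9 in ΔWAPL and 12.5 in ΔWAPL/ΔSCC4 with none in wild-type and ΔSCC4. Thus both genotypes without WAPL had the site, and both genotypes with WAPL lacked it.

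The second gained site lay 372 bp from the start of CCER1 on chromosome 12 (chr12:91347632-91348080), with 67 reads, in sequence with a GC content of 73.3% and 12 CpGs within 50 bp of the summit. ΔWAPL had 16.5-fold and ΔWAPL/ΔSCC4 18.5-fold CTCF enrichment there, and SMC1 was enriched 13.2-fold and 8.63-fold in the same genotypes. An intron of CTNNA2, the gene for the alpha-catenin of neurons, held the next site, where CTCF reached 17.9 in ΔWAPL (63 reads) and 11.6 in the double knockout. Intergenic sites at chr4:115299494-115299823 and chr4:37795208-37795574 had 17.8 and 17.3 in ΔWAPL, and 12.5 and 8.70 in the double knockout. A site in an intron of YIPF7 had 14.2 and 6.48 in these genotypes and, alone among the 8 strongest, no SMC1 peak in any genotype. The remaining 2 of the 8, in an intron of the long noncoding gene LINC00871 and on chromosome 15 (chr15:82395849-82396203), had 14.7 and 10.6 in ΔWAPL. All 8 had a CTCF peak in ΔWAPL/ΔSCC4 and none had one in ΔSCC4, and the 5 strongest gained sites with that pattern were the first 5 of these.

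The strongest gained sites within 1 kb of the start of a protein-coding transcript were at 5 further genes, since the nearest protein-coding start of CCER1 was 1108 bp from its site. At CLSTN2, a synaptic adhesion gene, the site lay 459 bp from the start, enriched 10.5-fold in ΔWAPL and 7.24-fold in the double knockout. At KCNJ6, which encodes an inwardly rectifying potassium channel, it lay 35 bp from the start, with 12.8 and 13.4. The sites at CXCL13, a B-cell chemokine gene, at SLC24A1, a cation exchanger gene of photoreceptors, and at SAMD5 had 11.8, 9.75 and 8.23 in ΔWAPL. None of these 5 had a CTCF peak in ΔSCC4. The sites of KCNJ6 and CLSTN2 had another ΔWAPL CTCF summit 442 bp and 573 bp away.

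Of the 8 strongest lost sites, 7 were in exons of TTK, the gene for a kinase of the mitotic spindle checkpoint, and the remaining one was in an intron of GSE1 (chr16:85513823-85514176). The site in GSE1 had 40 reads in wild-type, CTCF enriched 14-fold there and 11.3-fold in ΔSCC4, SMC1 peaks of 7.71 and 5.21 in these genotypes, and no peak in ΔWAPL or ΔWAPL/ΔSCC4. It was present in both genotypes with WAPL and absent from both without it. The same CTCF pattern was seen in introns of NBAS, a gene of Golgi-to-ER transport (13.7 in wild-type and 6.29 in ΔSCC4), and FAM168A (12.3 and 9.84), and at an intergenic site on chromosome 7 (11.8 and 10.8).

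Other strong lost sites did not split by WAPL. Near LINC02303, CTCF was enriched 14.6-fold in wild-type, 6.19-fold in ΔSCC4 and 5.24-fold in the double knockout. The site close to LAMA5, which encodes a laminin chain, had 14.4, 10.5 and 5.81, and that in BCL7C, which encodes a SWI/SNF subunit, had 12.6, 11.2 and 9.55 in the same order. The site in FAAH2, a fatty acid amide hydrolase gene, had 13 in wild-type and 9.87 in ΔWAPL/ΔSCC4 and no peak in ΔSCC4. The list of the strongest lost sites outside TTK was added after the TTK sites had been seen.

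The strongest lost sites near protein-coding starts, after TTK, lay 14 bp from the start of NUCB1, a calcium-binding Golgi protein gene, 26 bp from that of TRABD, 97 bp from that of the stress cytokine gene GDF15 and 867 bp from that of STRA8, a gene needed for entry into meiosis, with wild-type fold enrichments of 9.81, 9.73, 6.33 and 9.04. Each of these 4 had CTCF peaks in both ΔSCC4 and ΔWAPL/ΔSCC4, with fold enrichments of 4.88 to 8.91, and none had an SMC1 peak in any genotype.

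The 19 wild-type peaks of TTK stood apart from all other lost sites. Each summit lay in a different one of the 25 merged exons of the gene, although exons make up 11.9% of its length, and each interval reached 79 to 374 bp beyond its exon, with CTCF fold enrichments from 3.63 to 14.2. The summit pileup was 48 to 120 reads, or 44.3 to 111 times the average pileup of the library. The local background was 4.63 to 14 reads against an average of 1.08. It follows the reads of the same library in 10 kb, so the peaks themselves count towards it. TTK held no ΔWAPL CTCF peak, 4 in ΔSCC4 and 5 in the double knockout, where the pileup was at most 13.9 and 16.4 times the average, and it held no SMC1 or IgG peak in any genotype. Only 2 of the 19 had a motif match, the median GC content within 50 bp of their summits was 36.6%, and no shared CTCF site lay within 51.7 kb of the gene. The gene with the next largest number of exon summits in the wild-type list was CDC27 with 7, and CDC27 also led the other CTCF lists with 6 to 8. The sites of TTK were left out of the shares by band of −log10 q below.

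**Figure D1:**
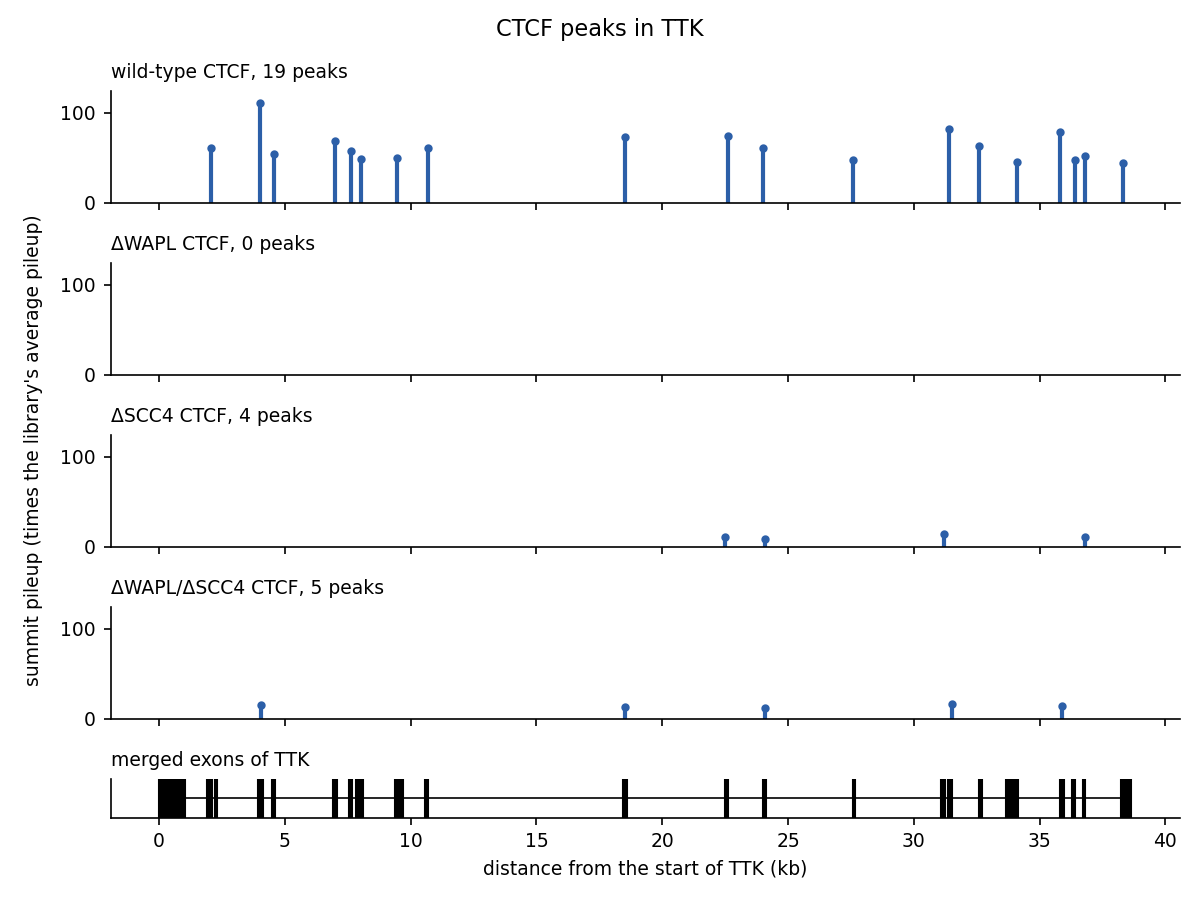
CTCF peaks in TTK in the 4 genotypes. Each line marks a peak summit at its distance from the start of the gene (kb), with the summit pileup as a multiple of the library's average pileup on the y axis, and black boxes mark the merged exons. The 19 wild-type peaks stand at 44.3 to 111 times the average, each over an exon, ΔWAPL has 0 peaks, and the 4 ΔSCC4 and 5 ΔWAPL/ΔSCC4 peaks stay at or under 16.4.

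Gained sites lay less often, and lost sites more often, near transcript starts than shared sites. The share within 1 kb of a start was 16.5% (15.6% to 17.4%) of gained, 19.9% (19.5% to 20.3%) of shared and 23.4% (22% to 24.8%) of lost sites. Intergenic sites went the other way, with 33.5% of gained, 31.2% of shared and 26.1% of lost sites. Introns held 45.3% of both gained and lost sites and 43.6% of shared sites. Coding exons away from starts held 1.40% of gained, 1.32% of shared and 2.33% of lost sites, or 1.90% (1.5% to 2.4%) of lost sites without TTK. Strength sharpened the pattern of gained sites: near starts lay 19.8% of those with −log10 q under 5 and 9.32% (6.44% to 13.3%) of those with at least 20, while the intergenic share was 30.8% and 43.0%. Among shared ΔWAPL peaks of at least 20, 19.4% were near a start and 32.2% were intergenic. At −log10 q under 5, 5 to 10 and 10 to 20, 23.9%, 23.4% and 22.7% of lost sites were near a start. Shared wild-type peaks had 20.2%, 20.3% and 20.0% there, and the intervals overlapped except at 5 to 10. Of the 20 strongest lost sites 1 was near a start. Shared peaks with −log10 q under 5 in the ΔWAPL list had 25.6% (22.7% to 28.7%) near a start and 26.1% intergenic.

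**Figure D2:**
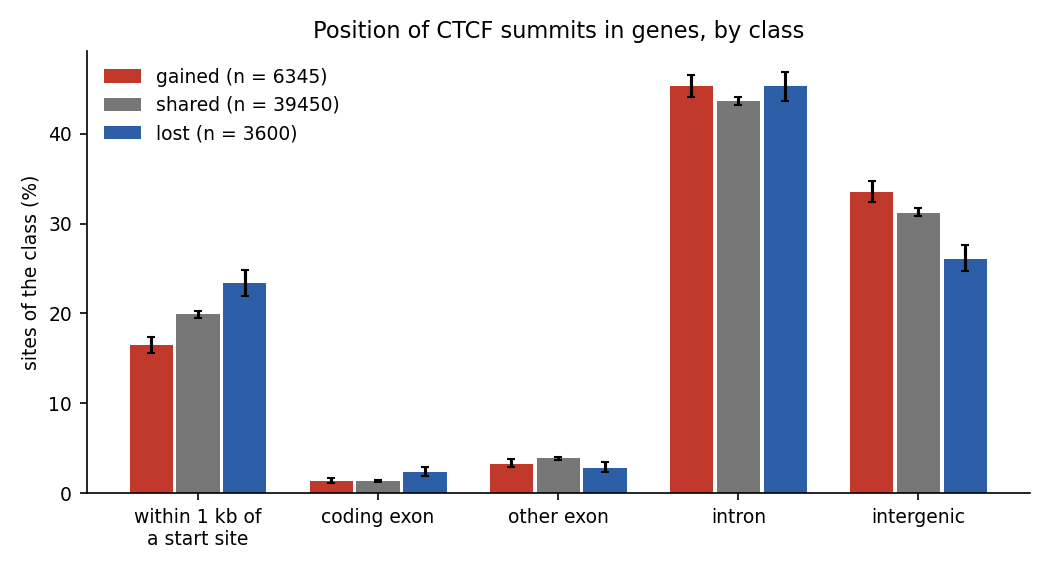
Share of CTCF summits in each gene part (%), for gained (red), shared (grey, wild-type peaks) and lost (blue) sites. Error bars are 95% Wilson intervals. Near starts the share rises from 16.5% of gained to 23.4% of lost sites, and between genes it falls from 33.5% to 26.1%.

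There were 22 genes with 5 or more gained summits, 242 to 2305 kb long, and 3 of their 128 gained sites lay in exons. A count per gene favours long genes, so their length is no finding. MDGA2, which encodes a regulator of synapses, held 8 gained sites and 1 shared site. GALNTL6 and SDK1 (an adhesion protein of synapses) held 7 gained sites each beside 9 and 3 shared sites. In MDGA2, 7 of the 8 also had a peak in ΔWAPL/ΔSCC4 and 0 in ΔSCC4, and their ΔWAPL fold enrichments ran from 5.91 to 13.2. In PTPRD, a receptor phosphatase gene, 6 gained sites stood beside 26 shared sites. Besides TTK, 2 genes held 5 lost sites each, MAGI2, a synaptic scaffold gene, with 19 shared sites, and ROBO1, an axon guidance receptor gene, with 16.

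Runs were counted as gained sites next to each other with no shared site between them, and most gained sites stood alone, with 4667 single sites and 628 pairs. The longest run was 8 gained sites over 714 kb of chromosome 11 (summits at 91169052 to 91883319) that held no annotated gene at the summits, of which 6 were also in ΔWAPL/ΔSCC4 and 0 in ΔSCC4. Runs of 6 spanned 395 kb with summits in MDGA2 and 291 kb with summits in SDK1, and not every summit need lie in the gene. The longest run of lost sites was the 19 of TTK. Next were 9 sites over 21594 kb around the centromere of chromosome 9. A run of 5 sites over 183 kb of chromosome 5 had summits in COMMD10 and SEMA6A.

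The nearest CTCF neighbour of a gained site was usually a shared site. For 14.6% of gained sites and also for 14.6% of shared sites the nearest ΔWAPL peak was a gained one, so gained sites did not stand closer to each other than to shared sites by this measure. They did stand close to shared sites. The median distance to the nearest shared summit was 14288 bp for gained sites and 17374 bp for shared sites, and at −log10 q of at least 20 it was 8805 bp for gained and 16421 bp for shared sites. Within 10 kb of a shared site lay 55.6% (49.7% to 61.3%) of the strongest gained sites and 35.6% of equally strong shared sites. Lost sites were more isolated, with a median of 25298 bp against 17388 bp for shared sites of the wild-type list, and 22.1% lay within 10 kb. Their nearest wild-type peak was another lost site in 11.9% of cases, against 7.27% for shared sites.

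The CTCF motif was present at 58.1% (56.3% to 59.9%) of gained, 44.3% (42.0% to 46.8%) of lost and 81.7% (81.1% to 82.3%) of shared sites on even-numbered chromosomes, which were not used to learn it. In windows 1000 bp away, 4.84%, 4.50% and 5.05% matched. The low share at gained sites moved with their strength. From the weakest to the strongest band of −log10 q (under 5, 5 to 10, 10 to 20, at least 20), it was 42.2%, 58.6%, 69.1% and 80.4% at gained sites and 45.9%, 58.5%, 70.2% and 89.9% at shared ΔWAPL peaks, and the intervals of the classes overlapped in all but the last band. Lost sites stayed below shared wild-type peaks in the lower bands, with 36.2%, 48.0% and 60.8% against 46.0%, 59.9% and 70.4%, and 9 of 10 of the strongest had the motif.

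The matches were also compared for CpGs within the motif. CTCF binds poorly where certain CpGs of its motif are methylated. A CpG at positions 14 to 17 was found in 12.9% (11.9% to 14.1%) of the matches of gained sites, 22.7% (20.7% to 24.8%) of those of lost sites and 27.4% of those of shared sites. At −log10 q of at least 20 it was 11.8% (8.16% to 16.9%) at gained against 29.1% at shared ΔWAPL peaks. Lost sites stood above shared wild-type peaks of like strength in the 3 lower bands, with 22.6%, 21.7% and 28.1% against 19.3%, 17.9% and 19.3%. The intervals of the classes overlapped in the lower 2 of these bands. In the highest band it was 18.8% (6.59% to 43.0%) of 16 lost matches, against 30.4% of shared ones. The CpG at positions 5 and 6, chosen for a closer look after its values were seen, was in 5.55% of gained, 11.5% of lost and 9.31% of shared matches. In the lower 2 bands gained sites had 3.92% (2.65% to 5.77%) and 5.48% (4.55% to 6.59%). Shared ΔWAPL peaks had 8.76% (6.24% to 12.2%) and 7.56% (6.56% to 8.71%) there. In the upper 2 bands gained sites (5.84% and 9.48%) and shared ΔWAPL peaks (6.08% and 9.99%) were alike within their intervals. Among the 16 strongest lost matches outside TTK it was in 9 (56.2%, 33.2% to 76.9%), against 10.1% of equally strong shared wild-type peaks. Of these 9, 8 had a CTCF peak in ΔSCC4 and 4 had one in ΔWAPL/ΔSCC4. DNA methylation was not measured in these libraries.

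The strand of the motif relative to strong neighbours differed between lost and shared sites. For each site with a motif, the nearest strong shared sites with a motif (−log10 q of at least 20) were found in front of the motif, on its 3′ side, and behind it. The site in front was on the opposite strand, so that both motifs faced each other, for 61.4% (59.0% to 63.7%) of lost and 51.3% (50.7% to 51.8%) of shared wild-type peaks, and the site behind was on the same strand for 59.3% (56.9% to 61.7%) and 50.4%. Of the 32286 shared wild-type sites with a motif, 23900 had −log10 q of at least 20 and were themselves the strong sites. Among these, a higher share in front means a lower share behind by construction, with 50.7% and 49.3%. All shared sites together could thus hardly be high on both measures, as lost sites were. Weaker shared sites are free of this limit. At −log10 q of 5 to 10 they had 53.2% (51.4% to 55.0%) and 53.6% (51.8% to 55.4%). Lost sites had 62.5% (59.3% to 65.6%) and 58.4% (55.2% to 61.6%) there, so the intervals overlapped for the site behind. Lost sites with a ΔSCC4 peak (63.7% and 59.6%) and without one (60.5% and 59.2%) were alike within their intervals. In the ΔWAPL list, the shared peaks that were weakest there, with −log10 q under 5, had 58.6% and 62.1%. This measure was added after the other values had been seen.

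Strong gained sites showed another arrangement. Their motif faced the strong shared site in front in 43.7% (40.6% to 46.8%) of cases at −log10 q of 10 to 20 and in 44.1% (37.5% to 50.8%) at 20 or more, against 53.5% and 50.0% of shared ΔWAPL peaks. Shared peaks at 20 or more were themselves the strong sites, so their share in front was tied to that behind. The nearest strong site tended to be behind them. At −log10 q of at least 20 the median distance was 15.4 kb behind and 65.9 kb in front of gained sites, against 45.2 kb and 68.1 kb for shared sites. The site behind was the nearer one for 69.2% (62.7% to 75%) of these gained and 57.9% of shared sites. Over all strengths it was nearer for 49.9% of lost sites and 56.7% of shared wild-type peaks, most of which were stronger. At −log10 q under 5, 5 to 10 and 10 to 20, lost sites had 47.8%, 49.7% and 55.7%. Shared wild-type peaks had 52.8%, 54.0% and 54.5% there, and the intervals overlapped in each of these bands. Taken as plain neighbours with a motif, pairs that included a lost site were convergent in 29.1% (27.5% to 30.7%) and divergent in 21.4% of cases, against 24.3% and 25.1% of pairs of shared sites. Pairs that included a gained site were in tandem in 53.6% (52.4% to 54.7%) of cases, against 50.8% of pairs of shared sites in ΔWAPL.

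**Figure D3:**
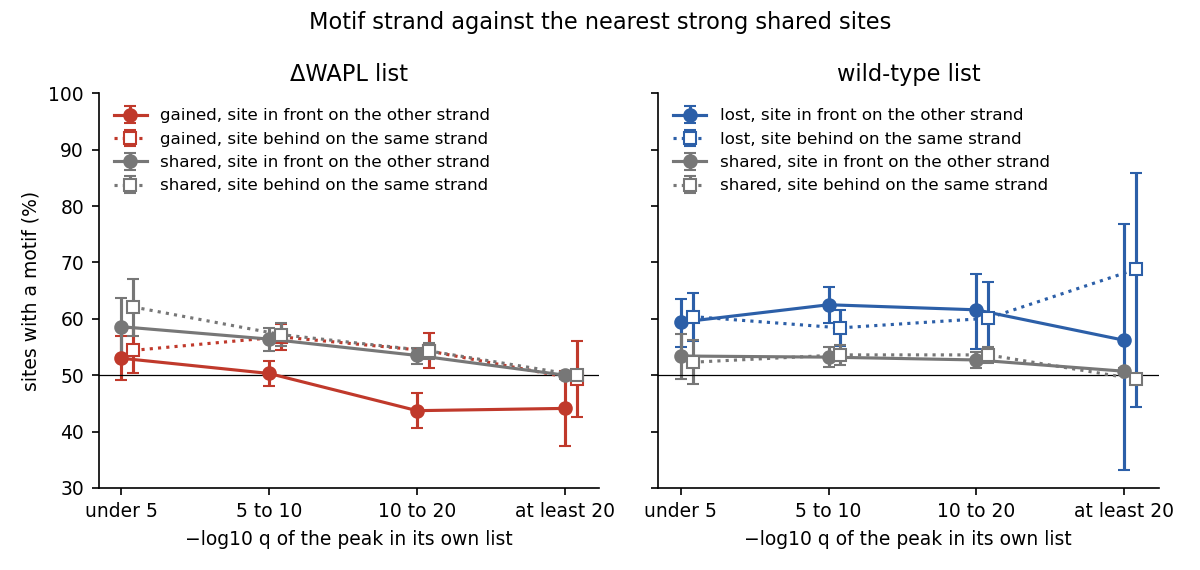
Strand of the motif against the nearest strong shared sites, by −log10 q of the peak in its own list, in the ΔWAPL list (left) and the wild-type list (right). Filled circles give the share of sites (%) whose nearest strong shared motif in front is on the other strand, open squares the share whose nearest one behind is on the same strand, error bars are 95% Wilson intervals, and the line marks 50%. Lost sites (blue) stay above shared sites (grey) in the 3 lower bands, and gained sites (red, filled) fall to 43.7% and 44.1% in the upper 2 bands. In the highest band the shared sites are themselves the strong sites, so their shares in front and behind are tied to each other.

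Gained sites were looked up in the other CTCF libraries. A CTCF peak in ΔWAPL/ΔSCC4 was found at 53.6% (52.4% to 54.9%) of gained sites and a CTCF peak in ΔSCC4 at 13.4% (12.6% to 14.3%), while shared sites, most of them stronger, had 97.4% and 88.8%. From the weakest to the strongest band, the share of gained sites with a peak in ΔWAPL/ΔSCC4 was 38.6%, 49.4%, 73.3% and 88.9%, and that with a peak in ΔSCC4 was 10.3%, 13.8%, 16.2% and 13.3%. Shared ΔWAPL peaks of the same bands had 73.8%, 85.6%, 96.8% and 99.9% in ΔWAPL/ΔSCC4 and 42.7%, 55.6%, 78.0% and 97.4% in ΔSCC4, so weak shared sites leaned the same way. The 43.9% of gained sites that were in ΔWAPL/ΔSCC4 and not in ΔSCC4 compare with 3.67% in ΔSCC4 and not in ΔWAPL/ΔSCC4, and 42.7% were in neither. ΔWAPL/ΔSCC4 cells descend from ΔWAPL cells and their list is longer, with 47608 peaks against 37625 in ΔSCC4, and the part of WAPL, of the lineage and of the number of peaks cannot be told apart.

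Lost sites were not the reverse of this. A CTCF peak was found in ΔSCC4 at 23.9% (22.5% to 25.3%) of lost sites and in ΔWAPL/ΔSCC4 at 47.7% (46.0% to 49.3%), so that more lost sites were seen in the other genotype without WAPL than in the genotype with it. With strength the ΔSCC4 share was 14.3%, 25.5%, 52.3% and 75% from the weakest to the strongest band. The ΔWAPL/ΔSCC4 share was 35%, 52.6%, 73.5% and 65%, the last of 20 sites. Shared wild-type peaks of the same bands had 38.6%, 54.0%, 83.4% and 99.2% in ΔSCC4. In ΔWAPL/ΔSCC4 they had 77.0%, 88.5%, 97.9% and 99.9%, so weak shared sites leaned the same way, and the ΔWAPL/ΔSCC4 list is the longer one. Only 7.22% of lost sites were in ΔSCC4 and not in ΔWAPL/ΔSCC4, and 45.1% were in neither.

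Cohesin was seen at part of the gained sites. A ΔWAPL SMC1 peak overlapped 21.7% (20.7% to 22.8%) of gained sites, rising over the bands from 13.6% to 16.9%, 35.6% and 55.9%, and a wild-type SMC1 peak overlapped 2.08%. Shared ΔWAPL peaks of the same strength had 15.5%, 20.7%, 37% and 82.1%. Of the 279 strongest gained sites, 0 had a wild-type SMC1 peak, which allows a share of up to 1.36% at the upper Wilson limit. Lost sites had a wild-type SMC1 peak in 2.69% (2.21% to 3.28%) and a ΔWAPL SMC1 peak in 9.83% (8.90% to 10.8%) of cases, against 44.1% and 67.1% of shared sites, most of which were stronger. At like strength the wild-type SMC1 share in the 3 lower bands was 2.11%, 2.47% and 5.61% of lost sites and 3.55%, 5.84% and 11.9% of shared wild-type peaks. The 20 strongest lost sites outside TTK had 4 wild-type and 0 ΔWAPL SMC1 peaks. IgG peaks overlapped 0.725% of gained, 0.944% of lost and 0.928% of shared sites.

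**Figure D4:**
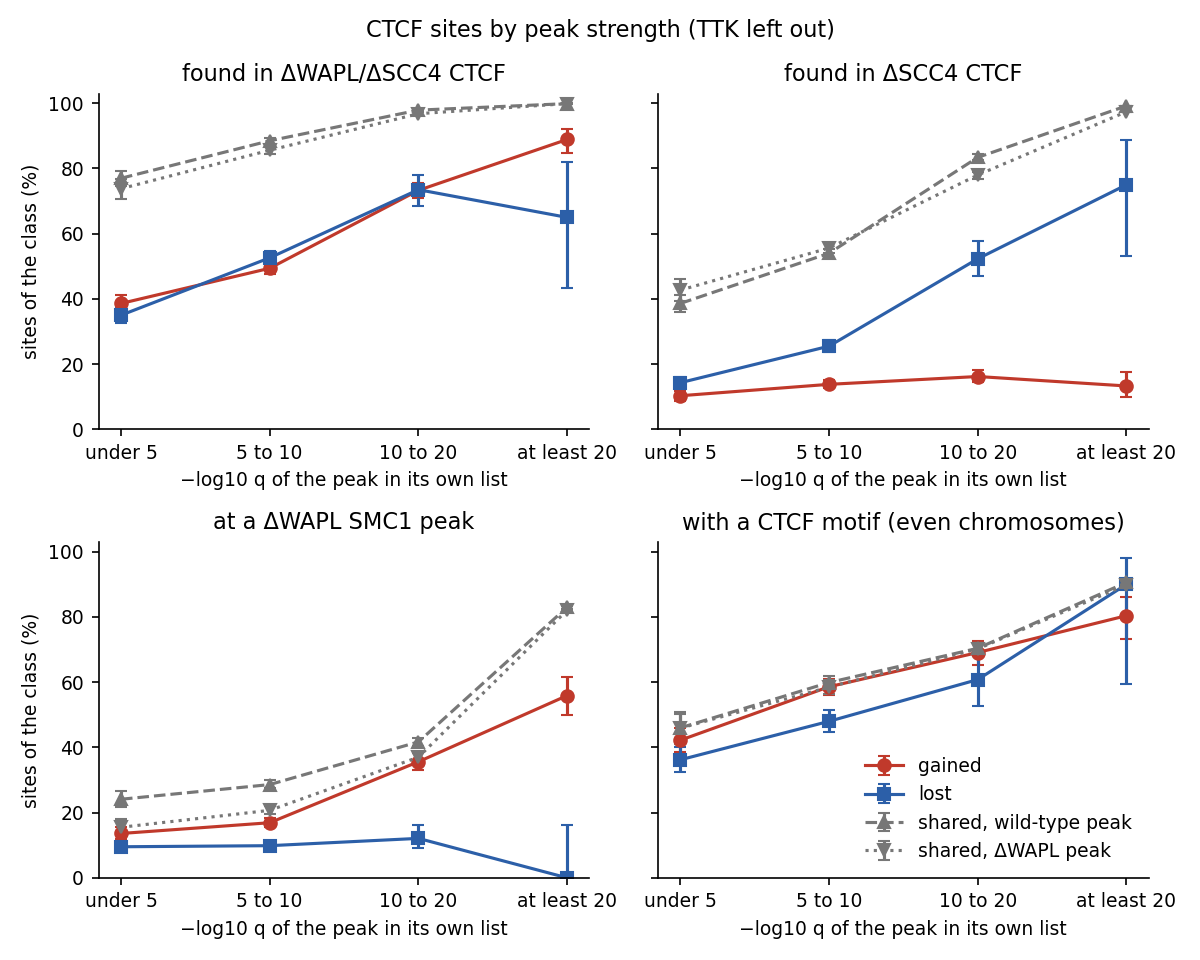
Share of gained (red), lost (blue) and shared (grey) CTCF sites (%) with a CTCF peak in ΔWAPL/ΔSCC4 or ΔSCC4, with a ΔWAPL SMC1 peak or with a CTCF motif, by −log10 q of the peak in its own list. Shared sites are given by their wild-type and by their ΔWAPL peak, TTK is left out, and error bars are 95% Wilson intervals. Gained sites climb to 88.9% in ΔWAPL/ΔSCC4 and stay between 10.3% and 16.2% in ΔSCC4.

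GC content set the classes apart as well. The median GC content within 50 bp of the summit was 47.5% at gained sites and 50.5% at both lost and shared sites. That within 250 bp was 43.9%, 46.5% and 45.5%. At −log10 q under 5, 5 to 10 and 10 to 20 the median within 50 bp was 50.5%, 51.0% and 53.5% at lost sites. Shared wild-type peaks had 48.5%, 49.5% and 48.5% there. Gained sites had 48.5%, 47.5% and 47.5%, and shared ΔWAPL peaks 50.5%, 49.5% and 49.5%. Across quintiles of GC content, set by the 250 bp on each side of shared summits, the share of ΔWAPL peaks that were gained was 15.6%, 15.6%, 14.5%, 13% and 10.5%, and the share of wild-type peaks that were lost was 5.91%, 8.77%, 8.84%, 8.76% and 9.44%. At −log10 q of at least 10 the gained share went from 5.60% (5.10% to 6.14%) in the lowest to 2.67% (2.32% to 3.07%) in the highest quintile, and the lost share without TTK from 0.486% to 1.31%. The libraries differed along the same axis. At shared sites the ratio of the ΔWAPL to the wild-type local background, each relative to its library average, fell from 0.980 to 0.936, 0.913, 0.884 and 0.865, and the ratio of summit pileups from 0.892 to 0.791. Its part in the GC difference of the classes was not tested.

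**Figure D5:**
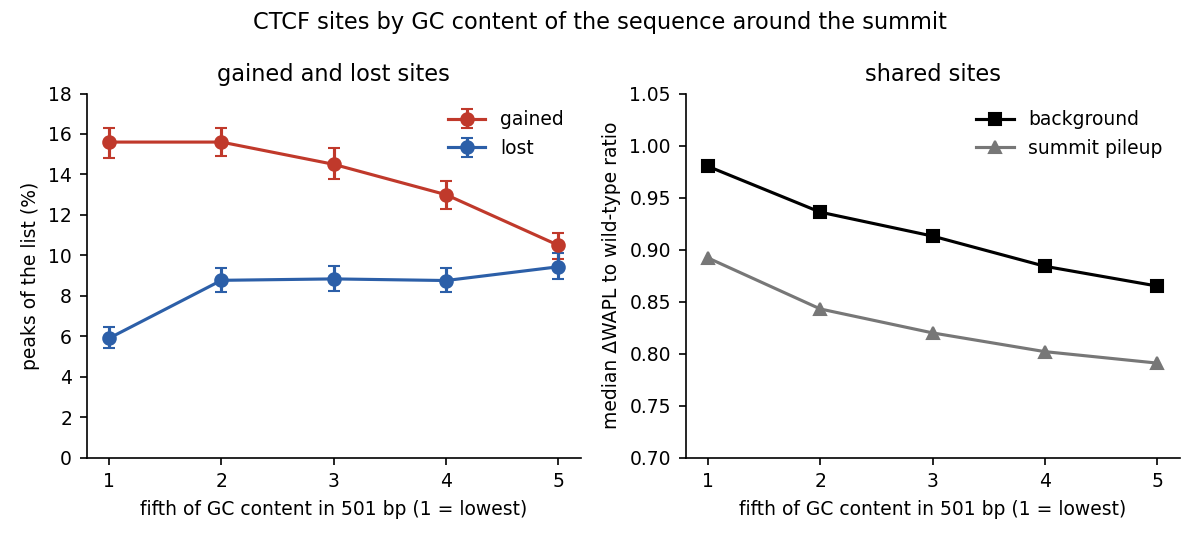
Gained and lost sites (left, % of the peaks of their list, with 95% Wilson intervals) and the median ΔWAPL to wild-type ratio of local background and summit pileup at shared sites (right), by quintile of GC content within 250 bp of the summit. The gained share falls from 15.6% to 10.5% while the background ratio falls from 0.980 to 0.865. The y axis on the right starts at 0.7.

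The shares also varied between chromosomes. Among chromosomes 1 to 22 and X, the gained share was lowest on chromosome 19 (7.46%, 6.24% to 8.90%), the most GC-rich, and highest on chromosome 21 (18.1%, 14.9% to 21.9%), followed by chromosomes 4 (17.7%) and 13 (17.5%). Over these 23 chromosomes, which share 1 library a side, it had a Pearson correlation of -0.80 and a Spearman correlation of -0.74 with GC content and of 0.91 and 0.86 with the background ratio. The lost share was lowest on chromosome 15 (6.4%, 5.25% to 7.79%) and highest on chromosome 21 (10.7%, 8.12% to 14%), with chromosome 19 at 10.1%, and its correlations with GC content were 0.23 and -0.11.

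Repeated sequence was rare in each class. Windows in which at least 50% of the 20-base words occur 10 or more times in the genome made up 2.84% (2.46% to 3.27%) of gained, 4.64% (4.00% to 5.38%) of lost and 1.40% (1.29% to 1.52%) of shared sites. Shared wild-type peaks with −log10 q of 5 to 10 had 3.47% and lost sites of that band 4.93% (4.04% to 6.01%). From the weakest to the strongest band gained sites had 3.83%, 2.77%, 2.13% and 1.79% (0.768% to 4.13%). Shared ΔWAPL peaks had 4.33%, 3.55%, 2.63% and 0.746%, so gained sites were not above them in the 3 lower bands.

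Relative to the average pileup of each library, shared sites varied in strength around a lower ΔWAPL level. The median ΔWAPL to wild-type ratio of summit pileups, each divided by its library average, was 0.829. The lower and upper quartile were 0.712 and 1.00. As a ratio of fold enrichments the median was 0.956, and 40.5% of shared sites stood above 1. Read numbers in brackets below are not divided by the average. By wild-type pileup it was 1.07 at up to 15 reads, then 0.910, 0.791 and 0.739 at over 80 reads, an order that is partly set by grouping on the denominator of the ratio and by requiring a peak in both lists. Sites where only ΔWAPL had an SMC1 peak stood higher than sites without SMC1 peaks at low pileup, with 1.26 against 1.03 at up to 15 wild-type reads and 0.989 against 0.852 at 16 to 40, while at 41 to 80 they had 0.803 against 0.791. The highest ratios of shared sites with at least 30 reads in a library were 7.42 at an intergenic site of chromosome 18 near LRRC30 (8 reads in wild-type, 75 in ΔWAPL) and 5.10 in an intron of LAMA1, a laminin chain gene (9 and 58). Both had a CTCF peak in ΔWAPL/ΔSCC4 and neither had one in ΔSCC4. The lowest ratios were 0.120 on chromosome 1 (chr1:184633119-184633469), 133 bp from the start of a gene without a symbol (66 reads in wild-type, 10 in ΔWAPL), 0.155 in an intron of CERS6, a ceramide synthase gene (51 and 10), and 0.170 in an intron of GOLGB1, the gene for giantin (56 and 12). These had ΔSCC4 fold enrichments of 17.8, 12.1 and 14.3, and GOLGB1 had no peak in ΔWAPL/ΔSCC4.

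The edited genes themselves were checked for CTCF sites. WAPL held no CTCF summit in either genotype, and a gained site of 21 reads, enriched 7.97-fold, lay 1732 bp outside it (chr10:88283143-88283434), with peaks of 4.88 in ΔSCC4 and 6.97 in ΔWAPL/ΔSCC4. MAU2 held 1 shared site, enriched 22.3-fold in wild-type and 19.2-fold in ΔWAPL, and a lost site with 13 reads lay 60 bp outside it.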

How the data were processed

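Chromatin from HAP1 cells was precipitated with a CTCF antibody and sequenced as single 65 bp reads. Per the methods of the study, the authors aligned to hg19 (Bowtie2), and MACS2 (version 2.1.1 in the submitters' processing notes) found the peaks of each library separately. IgG is named there as the control, but in the lists the background follows the reads of the precipitation itself in 10 kb. The deposited fold enrichment is a ratio of summit pileup to background with 1 read added to each, and the deposited −log10 p-value and −log10 q-value are the caller's own. The deposited score is −log10 q times 10 by the authors' caller and was not used. Thresholds of the peak caller are not given in the sources used here.

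From these, the whole-number pileup and the background were solved for each peak (1 solution for at least 99.99% of the peaks of both lists). The shortest interval gave the fragment length and the lowest background the depth. Intervals were compared by overlap (Python 3.11.15, numpy 2.4.6, pandas 2.3.3). Gene parts came from GENCODE 44 on GRCh37, in the order start site (within 1 kb), coding exon, other exon, intron. The motif was learned from 1000 shared sites of odd-numbered chromosomes and scored in 101 bp, with the threshold that 5% of windows 1000 bp away passed. The genome given was not repeat-masked, so the planned masked share was replaced by copies of 20-base words. Scripts were tested on simulated data. Coordinates are 1-based, and chromosome 8 sequence was not shown.

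Named sites were those of highest −log10 q on chromosomes 1 to 22 and X without an IgG peak: 8 gained and 8 lost, 5 of each near a protein-coding start, 5 of each that also split by WAPL in the other genotypes, and 3 of each with a motif, along with the 3 highest and 3 lowest pileup ratios of shared sites, genes with 5 or more gained or lost sites and the longest runs. Some items that these rules name are not reported here. Members, gene lists and rules were chosen with earlier results of these data known. With 1 library per group no p-value was computed. Alternatives were a −log10 q of at least 10, IgG peaks removed, main chromosomes only, 2 stricter overlap rules, equal peak numbers, thinning, and other distances, windows and thresholds, as well as, added after the data were seen, removal of TTK.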

Additional observations from a re-analysis of the deposited data

Results flagged for a closer look

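Lines with and without WAPL can be compared in 2 backgrounds, wild-type cells and cells without SCC4. ΔWAPL/ΔSCC4 cells descend from ΔWAPL cells, so the second pair is not a separate loss of WAPL in ΔSCC4 cells. Only 1 of the 6 measures of the whole CTCF lists went in opposite directions. The median GC content within 250 bp of the summit was 45.5% in both ΔSCC4 and ΔWAPL/ΔSCC4. The median interval width was 329 bp in wild-type and 325 bp in ΔWAPL, a ratio of 0.988, and 338 bp in ΔSCC4 and 349 bp in ΔWAPL/ΔSCC4, a ratio of 1.03. The fragment lengths of the libraries, which set the shortest interval, were 166, 163, 165 and 172 bp in the same order. The difference was not tested, since each group held 1 library.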

How the results depend on the processing

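Of 102 values under alternative settings, 66 stayed within the 95% interval of the value reported, or within 1.5 times for counts. With −log10 q of at least 10 and TTK included, there were 1596 gained and 360 lost sites, with 12.3% and 21.4% near a start and a motif at 71.2% and 57.0%. ΔWAPL SMC1 was then at 39.2% of gained and wild-type SMC1 at 6.11% of lost sites, 76.1% of gained were in ΔWAPL/ΔSCC4 and 51.9% of lost in ΔSCC4, and the median GC content of lost sites was 52.5%. Thinning to equal depth gave 4043 gained sites, 15.5% of them near a start, motifs at 64.8% of gained and 54.0% of lost, SMC1 at 28.7% and 4.87%, and 69.9% and 46.3% in the other genotypes. These thinned classes include sites that were shared in the full lists. Equal peak numbers gave, for gained sites, 15.4% near a start, 63.5% with a motif, 25.0% at SMC1 and 59.1% in ΔWAPL/ΔSCC4, and 27.9% of lost sites in ΔSCC4. Starts within 500 bp were at 11.9% of gained and 17.5% of lost sites, and protein-coding starts at 9.94% and 15.4%. A motif threshold of 1% of flanks gave 37.3% and 26.3%, and a window of 100 bp on each side 47.5% of lost sites. With summits within 250 bp, 3.69% of lost sites had wild-type SMC1. Median GC content over 250 bp on each side was 43.9% and 46.5%. The median pileup ratio at shared sites was 0.956 as fold enrichment and 0.823 with summits within 50 bp. The higher share near starts and the higher median GC content of lost sites, and the higher motif share of gained sites, held in 9 of 9, 8 of 8 and 9 of 9 alternatives. Leaving out TTK, added after the data were seen, moved none of the 6 values of lost sites beyond these limits.

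No paired analysis was possible because each group held 1 library, and leaving out a replicate would leave a group empty. Depth limits weak sites most, since a gained site had a median of 14 reads and a lost site 11.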

Other observations

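Gained and lost sites were also counted in gene families known for CTCF-bound clusters. Summits within 10 kb of the gene were counted, and the background was 13.9% of ΔWAPL peaks gained and 8.36% of wild-type peaks lost. The clustered protocadherins, neuronal adhesion genes whose promoters are chosen by CTCF and cohesin, had 43 shared wild-type sites, 2 gained (4.44% of 45 ΔWAPL peaks, 1.23% to 14.8%) and 4 lost sites (8.51%), and the median pileup ratio of ΔWAPL to wild-type at their shared sites was 0.970 against 0.829 at all shared sites. HOX genes, which pattern the body axis, had 5 gained of 28 ΔWAPL peaks (17.9%, 7.88% to 35.6%) and 1 lost of 24 wild-type peaks. Imprinted genes had 7 gained of 50 (14%) and 5 lost of 48 (10.4%), among them 1 gained site at H19 and 2 at GNAS and 2 lost sites at GRB10.

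Genes of cohesin and CTCF had 6 gained of 58 ΔWAPL peaks (10.3%) and 4 lost of 55 wild-type peaks (7.27%), with single gained sites at STAG1, PDS5B, ESCO2, CDCA5, HDAC8 and WAPL and single lost sites at SMC1B, RAD21, RAD21L1 and MAU2. The 476 zinc-finger genes had 38 gained of 424 ΔWAPL peaks (8.96%, 6.60% to 12.1%) and 41 lost of 426 wild-type peaks (9.62%, 7.17% to 12.8%). Large clusters of such genes are known on chromosome 19, where 7.46% of ΔWAPL peaks were gained and 10.1% of wild-type peaks were lost.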
